A study of Mus musculus with 4 samples.

Results

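The genes described here are the collagen chains, laminin chains and integrin subunits read in nuclei isolated from the deep cerebellar nuclei of mice. They were taken by symbol, as names that begin with Col, a number, a and a number, with Lam, a, b or c and a number, or with Itga or Itgb. Of 15632 genes in the deposited tables, 79 symbols matched, and the 60 with a count in each of the 4 libraries were kept. The other 19 were listed at 0 in at least 1 library. The 60 comprise 30 collagen chains, 10 laminin chains, 16 integrin subunits and 4 symbols that match the pattern without naming a chain or a subunit. Nuclei came from tissue microdissected out of vibratome slices of C57BL/6J mice. The 2 Ucn3-Cre libraries, from the line Tg[Ucn3-cre]KF31Gsat/Mmucd, were a female aged 3 months with an iodixanol gradient (replicate 1) and a male aged 3 months with a sucrose cushion (replicate 2). The 2 vGluT2-Cre libraries, from the line Tg(Slc17a6-icre)1Oki, were a male aged 2 months (replicate 1) and a female aged 2.5 months (replicate 2), each with a sucrose cushion. Mice of each line were crossed with Ai32, which makes channelrhodopsin fused to EYFP wherever Cre has acted, so all 4 libraries carry that allele. Line therefore cannot be told apart from age, and replicate 1 of Ucn3-Cre alone used the iodixanol gradient.

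Collagens and laminins are secreted as trimers. Collagen IV and the laminins polymerise into the 2 networks of the basement membrane, which surrounds vessels and lies under the glial limiting layer of the brain. Fibrillar collagens form the fibres of looser connective tissue such as the meninges. Integrins are pairs of an alpha and a beta subunit that span the cell membrane. They bind these matrix proteins outside the cell and the actin skeleton inside it, and integrins with alpha-v also activate latent TGF-beta.

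After removal of likely doublets 20547 nuclei were left, 4144 and 6240 from Ucn3-Cre replicates 1 and 2, and 5387 and 4776 from vGluT2-Cre replicates 1 and 2. Counts in the deposited tables totalled 9096357 to 19125488 per library, and the 60 genes took 0.192 to 0.214% of them. Clusters that met fixed marker rules gave 10 classes with 17749 nuclei, and 2798 nuclei stayed unnamed. Of these, 2467 formed 1 cluster, led by Piezo2 and Klk6, that scored highest for oligodendrocyte markers, so the oligodendrocyte class holds only part of the nuclei with that profile. The other 331 were among the 997 nuclei of clusters that scored highest for endothelial, mural or fibroblast markers. Of the 331, 74 formed a sub-cluster that scored highest for endothelial markers. The rest scored highest for oligodendrocyte, microglia or macrophage, or blood cell markers. No collagen, laminin or integrin gene took part in the clustering. The classes held 8711 oligodendrocytes, 5028 astrocytes, 1096 inhibitory neurons of the nuclei or Golgi cells, 763 microglia or macrophages, 694 oligodendrocyte precursors, 547 glutamatergic neurons, 336 endothelial cells, 250 mural cells, 244 molecular layer interneurons and 80 fibroblasts. Levels are counts per 1000000 (CPM) of the summed counts of a library and class. They are not scaled to transcript length, so the same gene is compared between classes and genes are not ranked against each other. The barcode sequences of 82 nuclei occurred in more than 1 library.

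The marker sums of the classes bear on several results. The 11 mural markers summed to 14864 to 19988 CPM in mural cells and to 2157 to 4049 CPM in endothelial cells. The 12 endothelial markers summed to 2818 to 7374 CPM in mural cells and to 27053 to 31513 CPM in endothelial cells. Mural cells also carried 4479 to 5254 CPM of the 10 astrocyte markers, against 13563 to 15121 CPM in astrocytes. The markers chosen for glutamatergic neurons summed to 9696 to 17411 CPM in glutamatergic and to 8867 to 15138 CPM in inhibitory neurons, so that list told these classes apart poorly. The inhibitory list summed to 230 to 444 CPM in glutamatergic and to 1321 to 1579 CPM in inhibitory neurons, but also to 1483 to 1853 CPM in molecular layer interneurons. That class carried 9619 to 12983 CPM of the Purkinje cell markers, against 5668 to 6948 CPM of its own list. Fibroblasts carried 2948 to 4555 CPM of the astrocyte, 1763 to 3596 CPM of the glutamatergic, 2131 to 2516 CPM of the oligodendrocyte precursor and 1458 to 1763 CPM of the mural markers. The part of such markers in the levels below was not tested.

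Summed over all 60 genes, fibroblasts had 20560 ± 1644 CPM and mural cells 7672 ± 1182 CPM (SD, n = 4 libraries). Endothelial cells had 4233 ± 196 CPM, and microglia or macrophages and oligodendrocyte precursors stood close behind, at means of 3868 and 3843 CPM. The endothelial sum holds 828 CPM of Col4a3bp, which codes for no collagen and averaged 76.5 to 141 CPM in each other class. Without that gene, endothelial cells would stand below microglia or macrophages and oligodendrocyte precursors. Astrocytes averaged 2610 CPM, oligodendrocytes 1262 CPM, inhibitory neurons 1148 CPM, glutamatergic neurons 1118 CPM and molecular layer interneurons 904 CPM. The unnamed nuclei averaged 2193 CPM. Fibroblasts held the highest mean level of 29 of the 60 genes, and for 19 of these their lowest library was above the highest library of the next class. Mural cells came first for 8 genes, oligodendrocyte precursors for 6, glutamatergic neurons and endothelial cells for 4 each and inhibitory neurons for 3. Microglia or macrophages and molecular layer interneurons each came first for 2, and oligodendrocytes and astrocytes for 1 each.

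**Figure D1:**
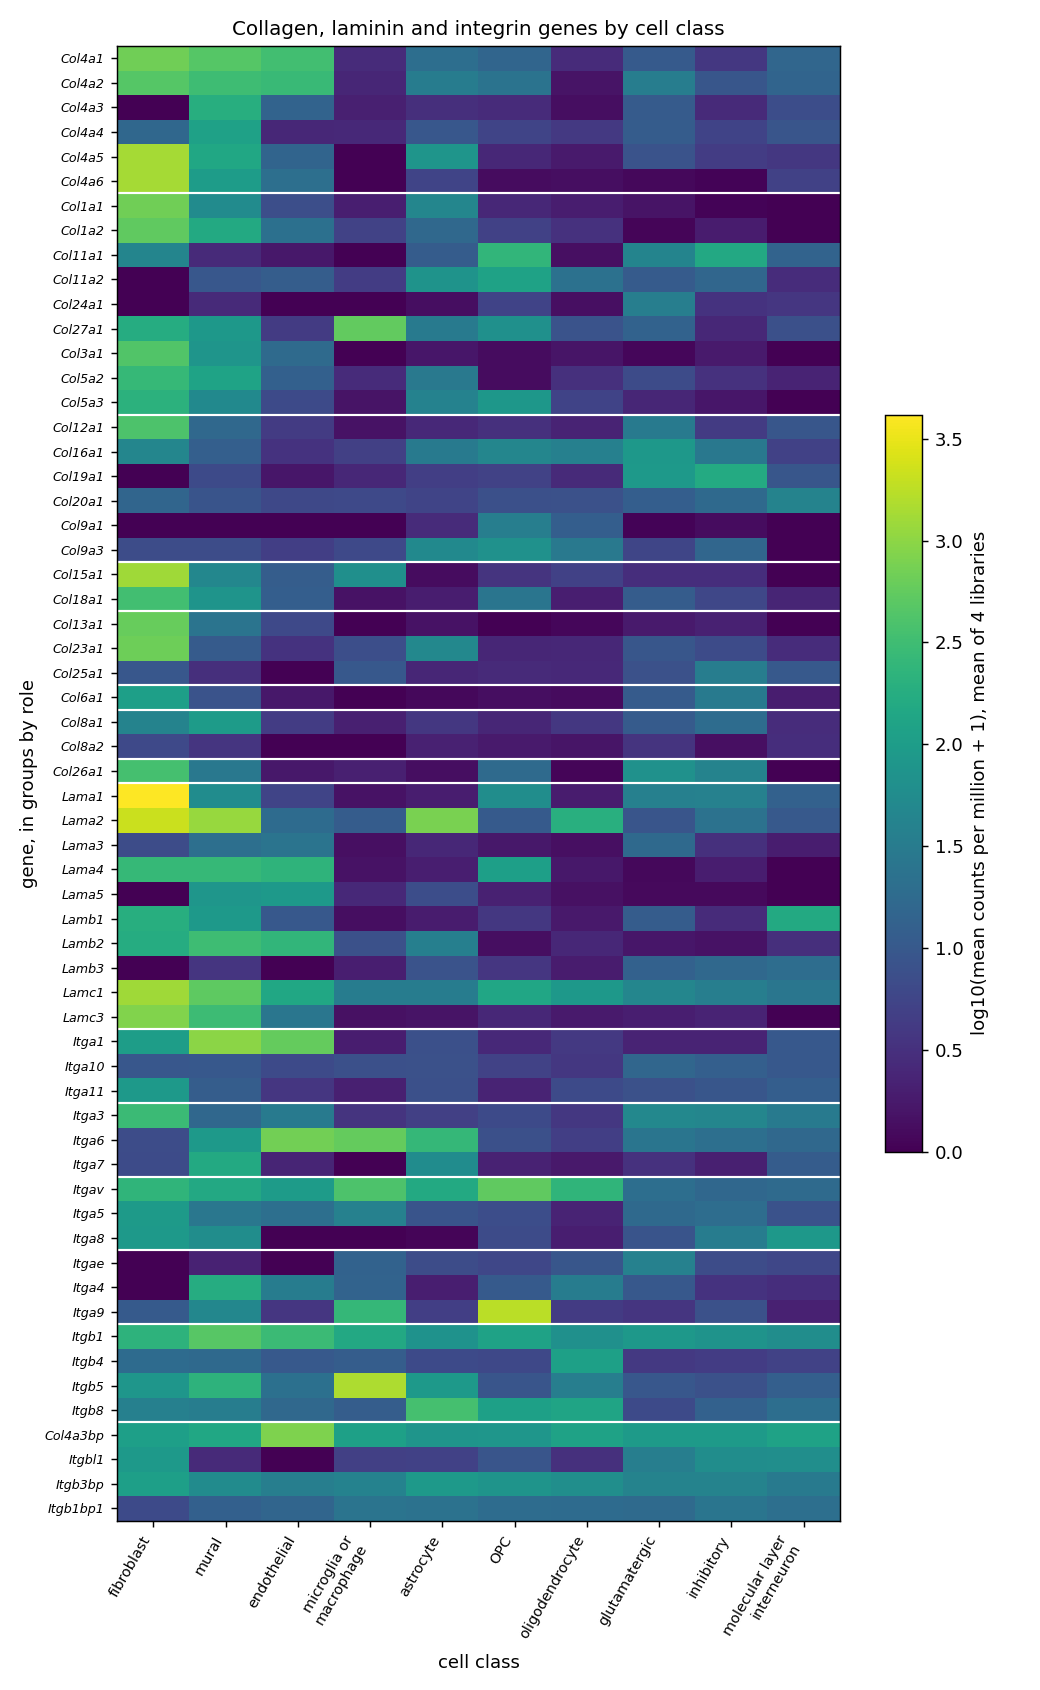
Level of each of the 60 genes in the 10 classes, coloured by log10(CPM + 1) of the mean over 4 libraries, with white lines between groups of genes by role. Fibroblasts hold the highest mean of 29 genes, and mural cells of 8.

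Differences between classes were tested on counts summed per library and class, with edgeR's quasi-likelihood test, the library as a block and Benjamini-Hochberg adjustment over all genes at a threshold of 0.05. Fibroblasts had 16 to 23 nuclei per library and fell under the minimum of 20, so they entered in a fit with a minimum of 15 that was chosen after these numbers were seen. Contrasts of every other class are from the fit without fibroblasts, so their mean of the other classes leaves fibroblasts out. The mean set against fibroblasts does hold mural cells. Counts of genes higher in fibroblasts and in another class therefore have unlike baselines. Of the 60 genes, 54 passed the filter on low counts, and 56 in the fit with fibroblasts. Col13a1 and Itga11 passed only with fibroblasts, the class in which both were highest. A gene that passed only through the class where it was high had to differ, and 95.2% of all 11767 genes tested differed across classes, so the 53 of 54 that did so here say little by themselves. P-values between classes are also too small, because the classes were drawn from the expression of the same nuclei. A fitted fold against the mean of other classes depends on the small prior count where several classes stand at or near 0. Such genes are therefore described by their levels.

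Collagen IV is built from 6 chains, whose genes lie as 3 pairs that start next to each other and are read in opposite directions. Col4a1 and Col4a2 code for the alpha1 and alpha2 chains found in nearly every basement membrane. Col4a3 and Col4a4 code for the alpha3 and alpha4 chains of the kidney filter, the lung and the inner ear, and Col4a5 and Col4a6 for alpha5 and alpha6. On GRCm38, in the GENCODE vM21 annotation, Col4a1 (chr8:11198423-11312826, minus strand) and Col4a2 (chr8:11312805-11449287, plus strand) start 21 bases apart. Col4a4 (chr1:82448423-82586849, minus strand) and Col4a3 (chr1:82586921-82722059, plus strand) start 72 bases apart. Col4a6 (chrX:141165403-141474076, minus strand) and Col4a5 (chrX:141475385-141689234, plus strand) start 1309 bases apart. The start regions are shown because the genes of a pair start close together, and the levels of each pair are given next. Each is a RefSeq window on GRCm38.p6 of 250 bases before to 50 bases after the start, in the direction of the gene, and capitals mark the letters CCAAT or its reverse ATTGG (the CCAAT box) and GGGCGG or its reverse CCGCCC (the GC box).
Col4a1, chr8:11312777-11313076, minus strand: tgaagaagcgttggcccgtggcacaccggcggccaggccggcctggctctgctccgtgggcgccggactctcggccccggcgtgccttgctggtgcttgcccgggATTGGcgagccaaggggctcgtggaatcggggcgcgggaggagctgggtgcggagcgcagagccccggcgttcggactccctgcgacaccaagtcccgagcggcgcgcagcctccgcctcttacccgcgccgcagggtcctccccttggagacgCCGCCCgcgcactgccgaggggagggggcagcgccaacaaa
Col4a2, chr8:11312555-11312854, plus strand: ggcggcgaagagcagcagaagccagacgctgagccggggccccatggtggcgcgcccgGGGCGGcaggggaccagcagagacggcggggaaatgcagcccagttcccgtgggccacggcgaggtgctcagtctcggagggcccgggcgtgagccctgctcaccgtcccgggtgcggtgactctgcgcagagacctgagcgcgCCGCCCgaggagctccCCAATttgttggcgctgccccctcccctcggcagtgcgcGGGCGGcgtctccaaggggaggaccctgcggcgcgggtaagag
Col4a4, chr1:82586800-82587099, minus strand: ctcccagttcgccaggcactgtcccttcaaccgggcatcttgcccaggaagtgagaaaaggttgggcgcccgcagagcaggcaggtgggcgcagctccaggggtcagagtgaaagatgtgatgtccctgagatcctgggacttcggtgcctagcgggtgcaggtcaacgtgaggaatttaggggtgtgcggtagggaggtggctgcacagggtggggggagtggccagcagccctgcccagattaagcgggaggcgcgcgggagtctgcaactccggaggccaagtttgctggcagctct
Col4a6, chrX:141474027-141474326, minus strand: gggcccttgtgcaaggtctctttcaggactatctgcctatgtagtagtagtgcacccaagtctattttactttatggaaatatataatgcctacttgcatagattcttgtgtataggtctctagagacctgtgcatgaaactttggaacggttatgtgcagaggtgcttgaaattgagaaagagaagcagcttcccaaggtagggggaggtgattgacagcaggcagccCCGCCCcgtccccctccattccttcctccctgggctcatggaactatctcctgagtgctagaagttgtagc
Col4a5, chrX:141475169-141475468, plus strand: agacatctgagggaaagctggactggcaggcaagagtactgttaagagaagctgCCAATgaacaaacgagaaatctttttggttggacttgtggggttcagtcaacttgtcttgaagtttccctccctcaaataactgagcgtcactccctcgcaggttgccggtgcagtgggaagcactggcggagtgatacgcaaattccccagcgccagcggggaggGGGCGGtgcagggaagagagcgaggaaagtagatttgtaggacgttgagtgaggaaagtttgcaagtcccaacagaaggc

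The windows of Col4a1 and Col4a2 share 78 bases. They are 74.0 and 73.7% G or C, against 63.3% for Col4a4, 48.3% for Col4a6 and 52.7% for Col4a5. The CCAAT box matched once each in Col4a1, Col4a2 and Col4a5, and the GC box matched 3 times in Col4a2 and once each in Col4a1, Col4a5 and Col4a6. The GC box of Col4a1 lies in the shared bases and is also counted in Col4a2. The Col4a4 window held neither, and none of the 5 windows held TATAAA or its reverse TTTATA. On either strand, the CCAAT letters occurred in 37.4% of all 32851 RefSeq windows, the GC box letters in 35.7% and the TATA letters in 13.6%. A match is a description of the letters only. RefSeq windows were matched for 44 of the 60 genes.

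Col4a1 and Col4a2 were high in fibroblasts, mural cells and endothelial cells. Col4a1 had 660 and 628 CPM in fibroblasts of Ucn3-Cre replicates 1 and 2 and 770 and 640 CPM in those of vGluT2-Cre replicates 1 and 2. In the same order it had 486, 396, 506 and 440 CPM in mural cells and 408, 319, 240 and 372 CPM in endothelial cells. The fibroblast values stood above the other classes in every library. The mean of each other class was 19.2 CPM or lower. Col4a2 had 625, 199, 520 and 515 CPM in fibroblasts, 232, 250, 484 and 285 CPM in mural cells and 283, 209, 333 and 292 CPM in endothelial cells, and these 3 classes overlapped. Against the mean of the other classes, Col4a1 was higher in mural cells by a log2 fold change of 5.24 ± 0.18 (SE, adjusted p = 1.49e-32) and in endothelial cells by 4.88 ± 0.16 (adjusted p = 2.06e-33). Between mural and endothelial cells, neither gene passed the test.

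Col4a3 and Col4a4 were highest in mural cells. Col4a3 had 84.8, 202, 298 and 164 CPM in mural cells of Ucn3-Cre replicates 1 and 2 and vGluT2-Cre replicates 1 and 2, against a mean of 13.3 CPM in endothelial cells and 0 counts in fibroblasts. Col4a4 had 42.2, 128, 198 and 91.6 CPM in mural cells. Every mural value of Col4a3 lay above the highest mean of any other class. Col4a3 was higher in mural than in endothelial cells by a log2 fold change of 3.27 ± 0.41 (SE, adjusted p = 4.00e-09, 4 of 4 libraries). Col4a4 rested on 1.96 counts in endothelial cells, which gave a ratio of 49.0 with an exact 95% interval of 12.8 to 409 for counting error. Against fibroblasts, mural Col4a3 was at least 10.7-fold higher, with 3 counts over the group as the floor, and the Col4a4 ratio was 6.52 (2.13 to 32.7).

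The Col4a5 and Col4a6 pair was led by fibroblasts. Col4a5 had 1172 to 1631 CPM in fibroblasts, a mean of 140 CPM in mural cells and 74.8 CPM in astrocytes. Col4a6 had 1602, 1359, 1475 and 907 CPM in fibroblasts and a mean of 99.2 CPM in mural cells. Fibroblasts exceeded mural cells in every library for both genes, by log2 fold changes of 2.92 ± 0.21 for Col4a5 (adjusted p = 6.62e-18) and 3.40 ± 0.29 for Col4a6 (adjusted p = 8.96e-15). In astrocytes Col4a6 averaged 4.54 CPM. Of the 6 collagen IV chains, all 6 were higher in mural cells than in the mean of the other classes, and 4 in fibroblasts in their own fit. In endothelial cells 4 were higher, in astrocytes 5 and in glutamatergic neurons 3. Microglia or macrophages and oligodendrocytes each had 4 lower, inhibitory neurons 3, and astrocytes and glutamatergic neurons 1 each. Of all genes tested, 20.7% were higher in mural cells, 7.46% in fibroblasts, 25.2% in endothelial cells, 34.0% in astrocytes and 36.5% in glutamatergic neurons. The shares lower were 29.1% in microglia or macrophages, 27.4% in oligodendrocytes, 26.2% in inhibitory neurons, 27.3% in astrocytes and 28.9% in glutamatergic neurons.

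**Figure D2:**
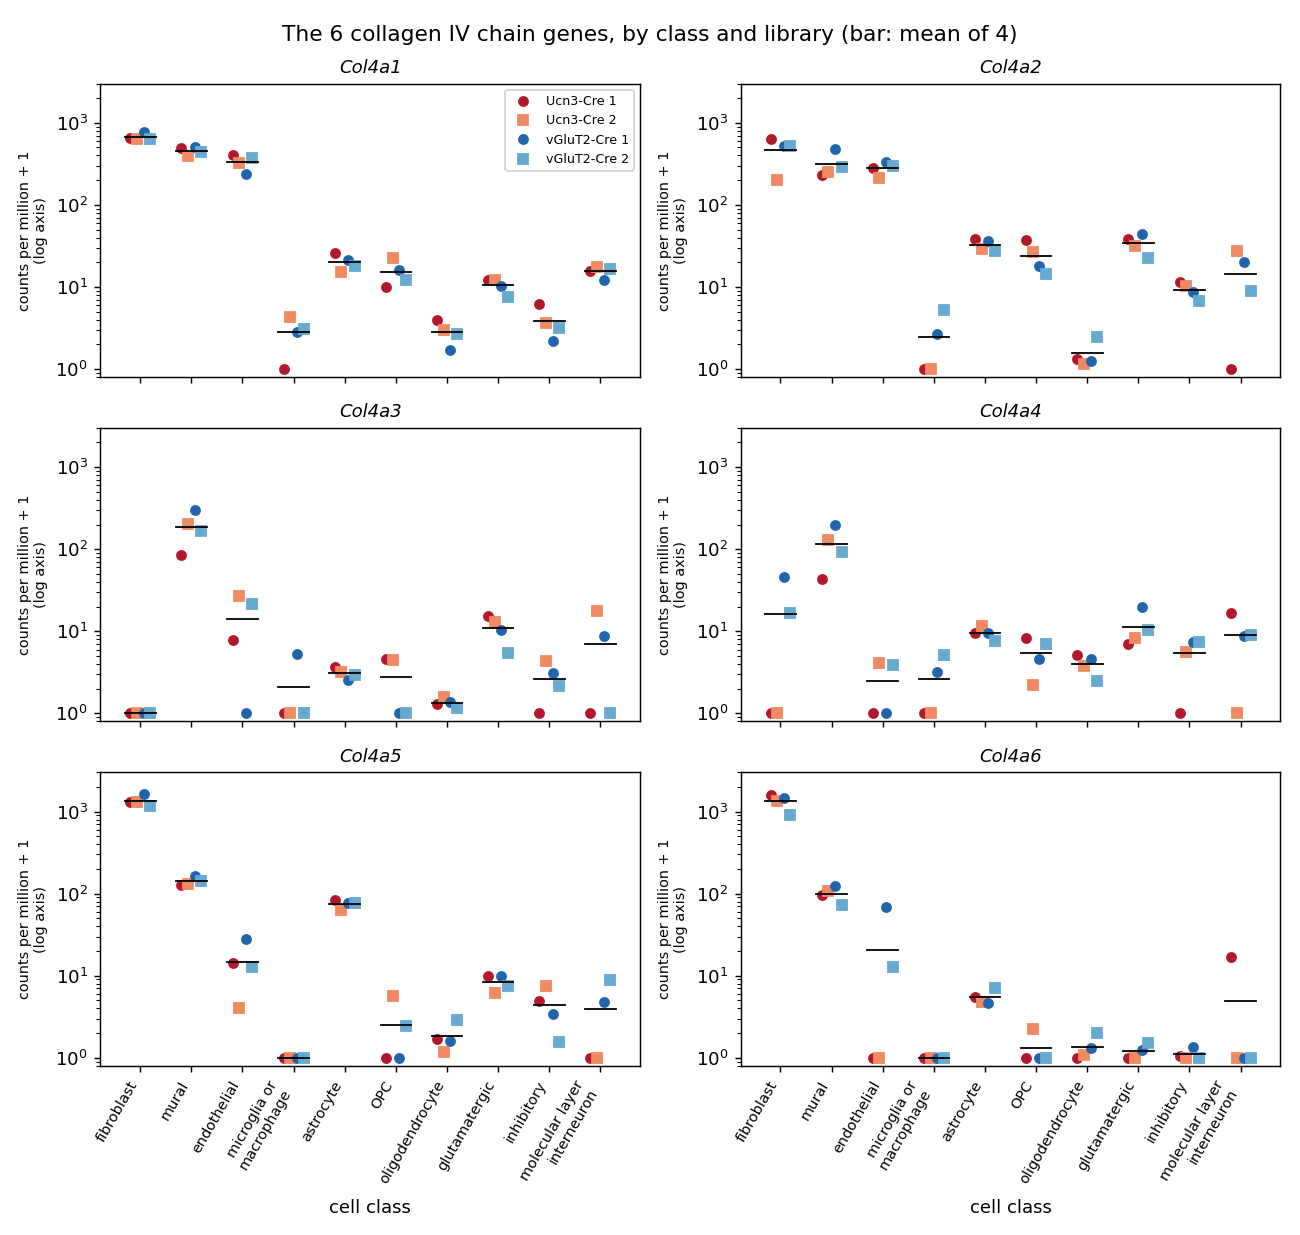
CPM + 1, on a log axis, of the 6 collagen IV genes in the 10 classes, with 1 point per library (colours) and a bar at the mean of 4. Col4a3 and Col4a4 sit highest in mural cells, and Col4a5 and Col4a6 in fibroblasts.

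Laminins are trimers of an alpha, a beta and a gamma chain, and the alpha chain largely sets which receptors bind. Lama1, the alpha1 chain of embryonic and meningeal basement membranes, had 3867, 3904, 4288 and 4518 CPM in fibroblasts. The next class, oligodendrocyte precursors, averaged 58.1 CPM, and mural cells had 63.1, 0, 10.9 and 149 CPM. Lama1 was higher in fibroblasts than in mural cells by a log2 fold change of 5.54 ± 0.24 (SE, adjusted p = 9.32e-29). Lama2, the alpha2 chain of muscle, glia and perivascular cells, had 2002, 1398, 3154 and 1834 CPM in fibroblasts, 811, 1099, 1442 and 1247 CPM in mural cells and 755, 712, 848 and 783 CPM in astrocytes. Oligodendrocytes averaged 190 CPM and endothelial cells 17.3 CPM. Lama2 was high in fibroblasts, mural cells and astrocytes and low in the endothelial lining. It was higher in mural than in endothelial cells by 5.97 ± 0.28 (adjusted p = 1.28e-24) and in astrocytes than in the mean of the other classes by 4.93 ± 0.10 (adjusted p = 1.11e-44).

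Lama4 and Lama5 code for the alpha4 and alpha5 chains of vascular laminins. Lama4 averaged 267 ± 124 CPM in fibroblasts, 265 ± 92.8 CPM in mural cells, 226 ± 43.0 CPM in endothelial cells and 110 ± 16.3 CPM in oligodendrocyte precursors (SD, n = 4 libraries), and the first 3 classes overlapped. No other class exceeded a mean of 1 CPM. Lama5 had 159, 21.6, 87.7 and 48.2 CPM in mural cells and 118, 77.5, 93.5 and 55.6 CPM in endothelial cells, which overlap, and 0 counts in fibroblasts. The mural value was at least 3.97-fold above that of fibroblasts.

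Among beta and gamma chains, Lamb2, the beta2 chain of mature vessels and synapses, had 465, 164, 352 and 270 CPM in mural cells and 269, 293, 197 and 213 CPM in endothelial cells. These overlapped. Fibroblasts followed at 172 ± 103 CPM, and then astrocytes at 35.6 CPM. Lamb1, the beta1 chain, differed between them, at 87.2 ± 24.4 CPM in mural cells and 8.83 ± 3.15 CPM in endothelial cells (log2 fold change 3.38 ± 0.51, adjusted p = 3.18e-07). It reached 186 ± 26.7 CPM in fibroblasts and 158 ± 24.8 CPM in molecular layer interneurons, the 2 classes in which it was highest. Lamc1, the gamma1 chain used by most laminins, averaged 1263 CPM in fibroblasts, 532 CPM in mural cells and 141 CPM in endothelial cells. Its mean was 25.6 CPM or more in every other class. Lamc3, the gamma3 chain, averaged 845 CPM in fibroblasts and 303 CPM in mural cells, and at most 25.2 CPM elsewhere. Of the 9 laminin chains tested, mural cells were higher in all 9 against the mean of the other classes, endothelial cells in 6, and astrocytes in 3 with 3 lower. Fibroblasts were higher in 7, in their own fit with mural cells in the baseline, so 7 and 9 do not rank these classes. The shares of all genes were those given for collagen IV, with 27.3% lower in astrocytes, and the astrocyte counts lay near them.

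Fibroblasts had the highest mean of the fibrillar genes Col1a1, Col1a2, Col3a1, Col5a2 and Col5a3. Of 8 fibrillar collagens tested, 7 were higher in them than in the mean of the other classes, against 7.46% of all genes. The 7 include Col11a1 and Col27a1, which other classes led, and Col11a1 rested on 8.52 fibroblast counts. Col3a1, the chain of fine reticular fibres, had 418, 504, 340 and 438 CPM in fibroblasts and 138, 7.21, 76.9 and 82.1 CPM in mural cells. Col1a1 and Col1a2, the chains of collagen I, averaged 669 and 546 CPM in fibroblasts and 54.1 and 157 CPM in mural cells. Col1a1 was also found in astrocytes, at 54.4, 35.4, 62.1 and 28.6 CPM, a level past oligodendrocytes in every library (log2 fold change 5.30 ± 0.31, adjusted p = 7.33e-22). Astrocytes had a mean of 15.7 CPM of Col1a2 and 0.653 CPM of Col3a1. The 14 fibroblast markers in the tables summed to 437 to 626 CPM in astrocytes, against 11853 to 17845 CPM in fibroblasts, and their part in the astrocyte value was not tested. Col5a2 and Col5a3, chains of collagen V, averaged 265 and 210 CPM in fibroblasts, 123 and 51.1 CPM in mural cells and 27.9 and 39.8 CPM in astrocytes. For Col5a3, oligodendrocyte precursors came second to fibroblasts, at 81.65 CPM.

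The other fibrillar genes had other leading classes. Col11a1, the alpha1 chain of collagen XI, was highest in oligodendrocyte precursors, at 227, 198, 292 and 249 CPM, with inhibitory neurons next at 137, 174, 182 and 117 CPM. The lowest precursor value was above the highest inhibitory one. Col27a1, a fibrillar collagen of cartilage, had 626, 566, 376 and 649 CPM in microglia or macrophages, and fibroblasts came next at 173 CPM. Col24a1, a fibrillar collagen known from bone, averaged 34.8 CPM in glutamatergic neurons and at most 4.30 CPM in every other class.

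Among the other collagens, Col15a1 and Col18a1, which release endostatin-like fragments and lie in vessel basement membranes, had means of 1249 and 334 CPM in fibroblasts, 46.2 and 74.4 CPM in mural cells and 10.6 and 11.1 CPM in endothelial cells. Col18a1 overlaps Slc19a1 on the other strand. Col13a1 and Col23a1, collagens that span the cell membrane, averaged 596 and 655 CPM in fibroblasts. Col13a1 was at most 23.5 CPM and Col23a1 at most 48.6 CPM elsewhere. Col12a1, which coats collagen I fibrils, averaged 404 CPM in fibroblasts and 28.8 CPM in glutamatergic neurons. Col6a1, the only collagen VI chain kept, averaged 110 CPM in fibroblasts and 28.7 CPM in inhibitory neurons. Col8a1, a network-forming collagen of vessel walls, had 116, 86.4, 131 and 47.1 CPM in mural cells and 0.99 counts in all endothelial cells.

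The alpha subunits of integrins are given by ligand. Itga1, the alpha1 subunit of a collagen receptor, had 688, 922, 1304 and 1026 CPM in mural cells and 534, 507, 536 and 712 CPM in endothelial cells. Fibroblasts averaged 103 CPM and no other class more than 8.80 CPM. The mural and endothelial ranges overlapped, but the difference passed the paired test at a log2 fold change of 0.69 ± 0.12 (adjusted p = 1.65e-05, 4 of 4 libraries). Itga1 overlaps Pelo and a predicted gene on its own strand. Itga11, another collagen receptor subunit, averaged 90.1 CPM in fibroblasts and at most 11.1 CPM elsewhere.

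The laminin receptors divided the same classes differently. Itga6, the alpha6 subunit, had 625, 758, 795 and 625 CPM in endothelial cells and 499, 619, 618 and 546 CPM in microglia or macrophages. Endothelial cells were above microglia in every library. Astrocytes had 243, 267, 294 and 226 CPM, mural cells 85.6 ± 12.1 CPM, oligodendrocytes 3.76 ± 2.42 CPM and fibroblasts 0.95 counts in all. Itga7, the alpha7 subunit of muscle, had a mean of 156 CPM in mural cells, a mean of 55.9 CPM in astrocytes and 1.81 counts in all endothelial cells. Itga3, the alpha3 subunit, averaged 288 CPM in fibroblasts, 47.3 CPM in glutamatergic and 44.5 CPM in inhibitory neurons. Thus the alpha6 level was higher in the vessel lining and the alpha7 level in its wall.

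Among subunits for other ligands, Itga9, which binds tenascin and other matrix proteins, had 1931, 1737, 1277 and 1952 CPM in oligodendrocyte precursors. Microglia or macrophages followed at 227, 232, 218 and 348 CPM, and oligodendrocytes averaged 3.32 CPM. Itgav, the alpha-v subunit of RGD receptors, had means of 546 CPM in oligodendrocyte precursors, 407 CPM in microglia or macrophages, 233 CPM in oligodendrocytes and 230 CPM in fibroblasts, and 15.0 to 19.4 CPM in the 3 neuron classes. Itga4, the alpha4 subunit known from leukocytes, had 136, 136, 271 and 149 CPM in mural cells. It averaged 32.2 CPM in endothelial cells and 31.6 CPM in oligodendrocytes. Itga4 overlaps Cerkl on the other strand. Itga8, an RGD receptor subunit of smooth muscle and kidney mesenchyme, averaged 87.6 ± 71.8 CPM in fibroblasts, 82.7 ± 29.9 CPM in molecular layer interneurons, 57.6 ± 18.4 CPM in mural cells and 31.7 ± 4.19 CPM in inhibitory neurons, and was at 0 counts in endothelial cells.

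Itgb1, the beta1 partner of most alpha subunits here, was found in all 10 classes, from 58.6 CPM in molecular layer interneurons to 479 ± 49.0 CPM in mural cells. Mural cells exceeded endothelial cells, at 288 ± 53.8 CPM, by a log2 fold change of 0.68 ± 0.15 (adjusted p = 3.41e-04, 4 of 4 libraries). Itgb4, the beta4 partner of alpha6 in hemidesmosomes and peripheral myelin, had 110, 108, 112 and 116 CPM in oligodendrocytes and at most 17.2 CPM in any other class. Itgb5, a partner of alpha-v, had 1610, 1454, 1310 and 1565 CPM in microglia or macrophages and 178, 265, 216 and 197 CPM in mural cells. Itgb8, the partner of alpha-v that activates TGF-beta, had 337, 310, 415 and 341 CPM in astrocytes, with oligodendrocytes at 129 CPM and oligodendrocyte precursors at 114 CPM.

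In the test against the mean of the other classes, mural cells had 36 of 54 genes higher and 0 lower, where 20.7% of all genes were higher and 15.3% lower. Fibroblasts had 33 of 56 higher and 1 lower, Itga6, against 7.46% and 7.7% of all genes. The 33 include Col13a1 and Itga11, which passed the filter only with fibroblasts, so those calls say little by themselves. That fibroblast contrast was scaled so that the median gene stood at -0.39 on the log2 scale, and at 0.08 when scaled by total counts, where 35 were higher and 0 lower. Endothelial cells had 20 of 54 higher and 11 lower (25.2% and 24.4% of all genes, 49.6% together). Of the named genes of the vessel classes, Lamc3, Itga1, Col3a1, Lama4 and Col4a6 had the largest folds in mural cells, Itga1, Lama4, Lama5, Lamb2 and Col4a1 in endothelial cells, and Col4a6, Col13a1, Lama1, Col3a1 and Lamc3 in fibroblasts.

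Mural cells, the pericytes and smooth muscle around the endothelial tube, were set against the endothelial cells directly. Of 54 genes, 28 were higher in mural cells and 2 lower, against 8.87% and 9.5% of all genes. The 28 comprised 6 of 8 fibrillar collagens, 5 of 9 laminin chains, 4 of 6 collagen IV chains and 8 integrin subunits. The 2 lower in mural cells were Itga6, by -2.97 ± 0.23 on the log2 scale (adjusted p = 3.12e-16), and Col4a3bp, which codes for no collagen. Several of the 28 had almost no count in endothelial cells. Mural Itga8 was at least 15.1-fold higher, and the ratios were 73.6 (12.3 to 2910) for Col8a1, 72.2 (11.7 to 2780) for Col27a1 and 68.6 (16.7 to 524) for Itga7, with exact 95% intervals for counting error. The part of the endothelial markers in mural cells and of the mural markers in endothelial cells, both given above, was not tested.

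**Figure D3:**
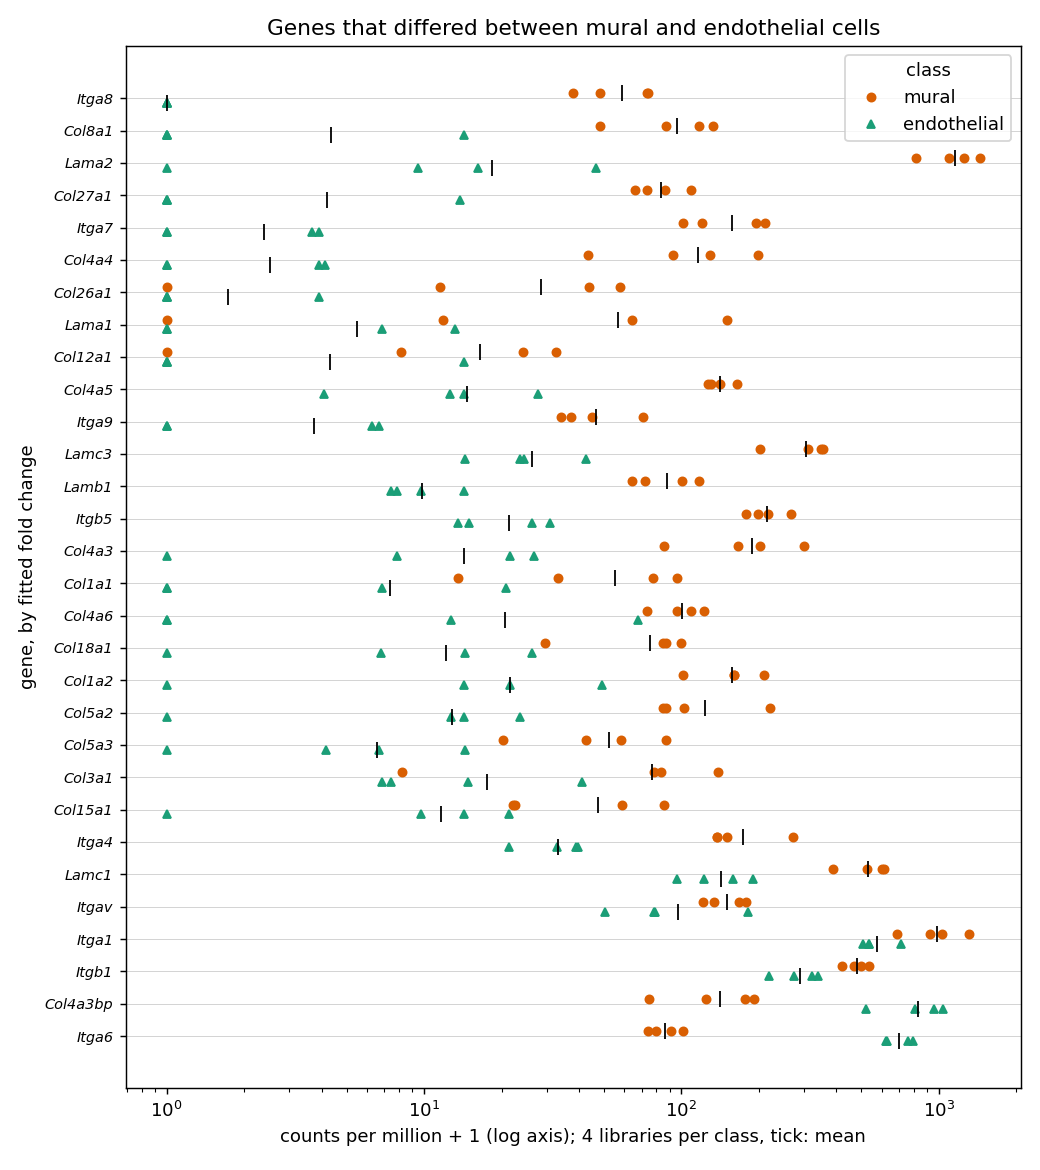
CPM + 1, on a log axis, of the 30 genes that differed, in mural cells (circles) and endothelial cells (triangles), with 1 point per library and a tick at the mean of 4, ordered by fitted fold change. The mural mean is the higher one for 28 genes and the lower one for Itga6 and Col4a3bp, at the bottom.

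Fibroblasts against mural cells showed differences in both directions. Of 56 genes, 20 were higher in fibroblasts and 10 lower, against 4.23% and 9.7% of all genes, with the median gene at -0.36 on the log2 scale. The 20 include Col13a1 and Itga11, which passed the filter only with fibroblasts. The higher ones were led by Lama1 (5.54 ± 0.24), Col23a1 (5.44 ± 0.44), Col12a1 (4.39 ± 0.46) and Col15a1 (4.37 ± 0.30, adjusted p = 1.04e-18), and by Itgbl1, at a ratio of 44.7 (6.40 to 1780). The lower ones comprised Col4a3 and Col4a4, Lama5 and Lamb2, and the integrin genes Itga1, Itga4, Itga6, Itga7, Itgb1 and Itgb5. Itga1 had 103 CPM in fibroblasts and 985 CPM in mural cells, and differed by -3.53 ± 0.27 (adjusted p = 8.47e-17). Itga4 was at least 9.64-fold higher in mural cells, and Itga7 and Itga6 had ratios of mural over fibroblast level of 25.5 (4.41 to 1010) and 16.5 (2.67 to 631). Fibroblasts were only 80 nuclei, and the call for Itga6 was lost without vGluT2-Cre replicate 2 (-3.55 on the log2 scale).

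Mural cells held 3 sub-clusters, of 67, 120 and 63 nuclei, compared here as pooled levels with no test. The sub-cluster of 67 was led by Acta2, Tagln and Myocd, genes of contractile smooth muscle. In it, Col4a3 and Col4a4 were at 42.3 and 8.25 CPM, against 258 and 189 CPM in the sub-cluster of 120 and 377 and 199 CPM in that of 63. Lama2 was likewise 457 CPM there, against 1718 and 1747 CPM. Lama5, Col18a1 and Lamb2 ran the other way. Lama5 stood at 136 CPM against 9.74 and 22.2 CPM, Col18a1 at 160 CPM against 4.86 and 0 CPM, and Lamb2 at 462 CPM against 136 and 199 CPM. Of the 63 nuclei of the last sub-cluster, 41 came from vGluT2-Cre replicate 1, which gave 3 nuclei to the sub-cluster of 67 and 5 to that of 120, so a library and a sub-cluster cannot be told apart there.

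Among the glia, astrocytes were higher than the mean of the other classes in 26 of 54 genes and lower in 11, oligodendrocytes in 12 and 18, and oligodendrocyte precursors in 16 and 7. The matching shares of all genes were 34.0% and 27.3% (61.3% together), 34.0% and 27.4% (61.4%), and 24.2% and 13.8% (38.0%). Set against oligodendrocytes, astrocytes were higher in 28 and lower in 10, where 33.5% and 33.6% of all genes were. The higher genes held all 6 collagen IV chains and 7 of 8 fibrillar collagens. The largest was Itga6, at 258 ± 29.6 CPM in astrocytes and 3.76 ± 2.42 CPM in oligodendrocytes (log2 fold change 6.13 ± 0.16, adjusted p = 1.08e-38). Col4a5 (6.12 ± 0.21), Itga7 (5.88 ± 0.26) and Col4a2 (5.32 ± 0.28) followed. The largest in the other direction were Itga4, at 1.01 CPM in astrocytes and 31.6 CPM in oligodendrocytes (-5.03 ± 0.31), and Itgb4 (-4.38 ± 0.14), then Col15a1 (-3.41 ± 0.55), Col9a1 (-2.59 ± 0.30) and Itga8. Itga8 had a ratio of oligodendrocyte over astrocyte level of 6.08 (1.66 to 61.4), and its call was lost without vGluT2-Cre replicate 1.

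Oligodendrocyte precursors, which divide and give rise to myelinating oligodendrocytes, were higher than oligodendrocytes in 19 of 54 genes and lower in 5, against 25.5% and 25.1% of all genes, 50.6% together. Itga9 was highest of these by fold, at 8.85 ± 0.17 on the log2 scale (adjusted p = 1.54e-44). Col11a1 had 227, 198, 292 and 249 CPM in precursors and 0.128, 0.233, 0.384 and 0.840 CPM in oligodendrocytes (8.71 ± 0.24). Lama4 had 106, 107, 133 and 94.4 CPM in precursors and a mean of 0.713 CPM in oligodendrocytes (7.30 ± 0.31), and Lama1 58.1 and 0.865 CPM (6.11 ± 0.44). Every precursor library was above every oligodendrocyte library for these 4 genes. The genes lower in precursors were led by Itgb4 (-4.59 ± 0.27) and Lama2 (-4.43 ± 0.27), followed by Itgb5 (-2.21 ± 0.36) and Itga4 (-1.76 ± 0.34, adjusted p = 1.14e-05). Lama2 had 13.6, 4.16, 10.6 and 10.4 CPM in precursors and 222, 178, 182 and 180 CPM in oligodendrocytes. Col9a1, a chain of collagen IX, was highest in precursors at 33.8 CPM and next in oligodendrocytes at 10.9 CPM.

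Microglia or macrophages had 8 genes higher and 19 lower, against 25.4% and 29.1% of all genes. Beside Itgb5 (5.83 ± 0.10, adjusted p = 2.56e-47) and Col27a1 (5.48 ± 0.16), the larger ones were Itga9 (4.61 ± 0.21), Itga6 (3.81 ± 0.12) and Col15a1, at 37.7, 101, 56.2 and 57.4 CPM. No laminin chain of 9 was higher there and 4 were lower. Itgal, Itgad and Itgb2, subunits of leukocyte integrins, were among the 19 symbols listed at 0 in at least 1 library. Itgad had 57.6 counts in Ucn3-Cre replicate 1, 133.8 and 105.5 in vGluT2-Cre replicates 1 and 2, and 0 in Ucn3-Cre replicate 2. Itgb2 had 49.2 counts in vGluT2-Cre replicate 2 and 0 in each other library. A listed 0 is thus not shown to be absence, and its source was not tested.

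The neuron classes had the lowest summed levels. Glutamatergic neurons were higher than the mean of the other classes in 21 of 54 genes and lower in 13 (36.5% and 28.9% of all genes, 65.3% together), and inhibitory neurons in 15 and 17 (33.8% and 26.2%, 59.9% together). Col19a1, a fibril-associated collagen known from hippocampal interneurons, had 71.7, 85.6, 91.0 and 101 CPM in glutamatergic and 181, 155, 184 and 137 CPM in inhibitory neurons. The groups did not overlap, and no other class exceeded a mean of 8.17 CPM. Col26a1 had means of 67.4 CPM in glutamatergic and 40.5 CPM in inhibitory neurons and was higher only in fibroblasts, at 356 CPM.

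Set directly against inhibitory neurons, glutamatergic neurons were higher in 17 of 54 genes and lower in 9 (13.1% and 12.3% of all genes). Without the library block 10 were higher. Sub-clusters with 39 and 46 of the 547 glutamatergic nuclei scored highest for the inhibitory markers, and 1 with 42 nuclei for the oligodendrocyte markers. Their part in these differences was not tested. Of 6 collagen IV chains 5 were higher. Col4a2 had 37.7, 30.7, 43.2 and 21.8 CPM in glutamatergic and 10.5, 9.21, 7.59 and 5.71 CPM in inhibitory neurons. Col12a1 had 27.3, 25.5, 20.8 and 41.4 CPM in glutamatergic and 2.63, 3.35, 2.12 and 4.66 CPM in inhibitory neurons (log2 fold change 3.19 ± 0.36, adjusted p = 1.24e-10). Lama3, a laminin chain of epithelia, followed with 2.95 ± 0.43, then Col27a1 (2.79 ± 0.52), Itgae (2.64 ± 0.28) and Col4a3 (2.34 ± 0.48). Itgae, the alphaE subunit known from lymphocytes, had 22.6, 27.4, 47.6 and 55.5 CPM in glutamatergic and 1.33, 7.26, 8.59 and 6.36 CPM in inhibitory neurons, and Haspin lies within it on the other strand. For each of these genes all 4 glutamatergic values were above the inhibitory ones.

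The genes lower in glutamatergic neurons were led by Col25a1, Itga8, Col11a1, Col6a1 and Lama2. Col25a1, a membrane collagen needed in mice for motor neurons to reach muscle, had 7.04, 4.97, 8.97 and 7.03 CPM in glutamatergic and 27.8, 38.2, 27.5 and 36.9 CPM in inhibitory neurons (-2.10 ± 0.30, adjusted p = 1.28e-07). Col11a1 had 49.4, 33.4, 54.6 and 31.1 CPM in glutamatergic and 137, 174, 182 and 117 CPM in inhibitory neurons (-1.81 ± 0.13, adjusted p = 1.27e-16). Neither pair of ranges overlapped. The inhibitory class was made of 2 clusters that did not hold these genes evenly. As means over libraries, the larger cluster had 218 CPM of Col11a1 and 53.2 CPM of Col25a1, against 59.0 and 2.97 CPM in the smaller, and the smaller had 75.6 CPM of Itga8 and 60.2 CPM of Col6a1, against 1.28 and 6.77 CPM in the larger. The call for Col6a1 (-1.45 ± 0.30) was lost without the library block.

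Molecular layer interneurons had 5 genes higher and 13 lower, against 16.9% and 9.91% of all genes, 26.8% together. Lamb1 had 137, 141, 192 and 161 CPM and was higher by 5.34 ± 0.28 on the log2 scale (adjusted p = 7.85e-24). Itga8, Itgbl1 and Col20a1 were the other 3 named. Col20a1, a fibril-associated collagen, had 47.0, 32.7, 26.5 and 55.9 CPM. Its mean was above that of every other class, though 1 fibroblast library stood at 41.6 CPM.

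The 547 glutamatergic nuclei were clustered again into 11 sub-clusters, and 10 of 14 genes tested differed across the 10 of them with at least 5 nuclei in at least 2 libraries, where 28.4% of all genes did. These p-values are too small, because the sub-clusters were drawn from the expression of the same nuclei. A gene that passed the filter only through the sub-cluster where it was high also had to differ. The count of 10 of 14 therefore says little by itself. Sub-cluster 1, of 14 nuclei, was not in the test. Col11a1 (adjusted p = 6.53e-12) was highest in sub-cluster 2, at a pooled 230 CPM, and Col24a1 (6.19e-11) in sub-cluster 8, at 250 CPM, against 0.949 CPM in sub-cluster 4. The untested sub-cluster 1 stood at 208 CPM. Sub-cluster 8 was led by Lmx1a among others, and had 37 nuclei. Lama1 (1.99e-09) was highest in sub-cluster 9, at 200.2 CPM, then in sub-cluster 0, at 87.8 CPM. Col12a1 (4.05e-07) was highest in sub-cluster 0, at 78.0 CPM, and Col23a1 (4.31e-07) in sub-cluster 9, at 100.1 CPM, with at most 10.4 CPM in any other. Sub-clusters 2 and 9 scored highest for inhibitory neurons and 6 for oligodendrocytes, and met the rule for those names. The other sub-clusters scored too low to be named on their own, with 1, 3 and 4 highest for glutamatergic neurons and the rest for granule cells (0 and 10), molecular layer interneurons (5 and 7) or unipolar brush cells (8). Without 2, 6 and 9, Col24a1 (adjusted p = 3.42e-12), Col11a1 (6.85e-05) and Lama1 (2.65e-03) still differed, Col26a1 did not pass (0.0579), and Col12a1 and Col23a1 fell under the filter. The tests were edgeR F tests with the library as block, on sums of at least 5 nuclei.

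**Figure D4:**
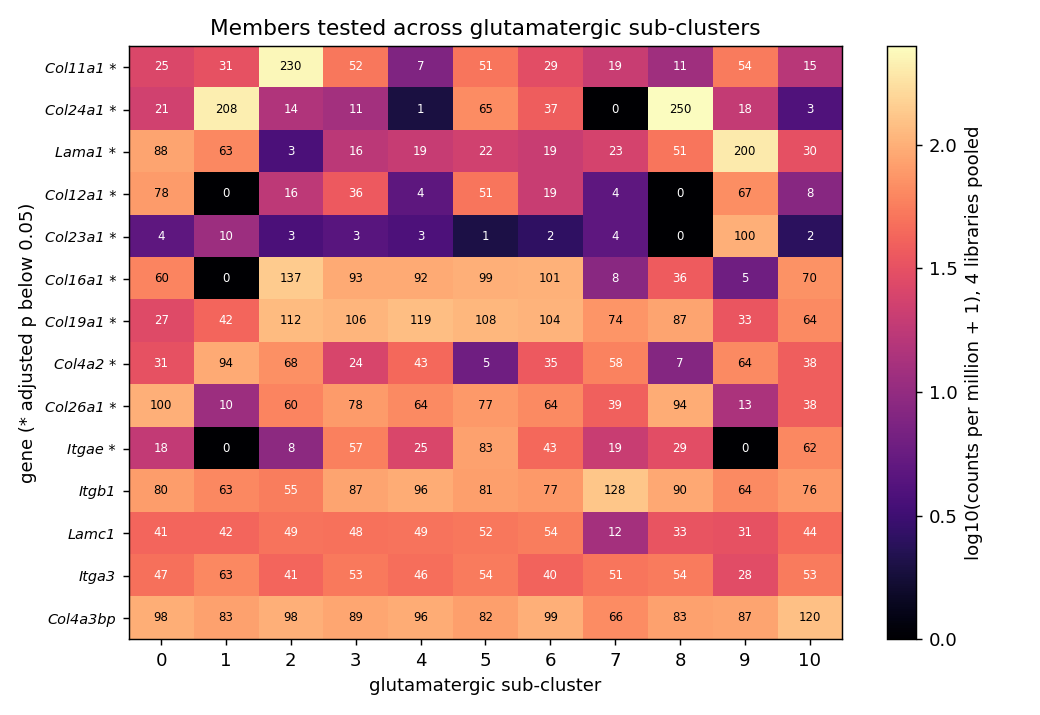
Pooled CPM of 14 genes in the 11 glutamatergic sub-clusters, written in each cell and coloured by log10(CPM + 1), with asterisks on the 10 genes that differed in the test, which left out sub-cluster 1. Col24a1 is highest in sub-clusters 8 and 1, and Col11a1 in sub-cluster 2.

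4 symbols match the pattern without naming a chain or subunit. Col4a3bp, a ceramide transfer protein, had 519, 1033, 954 and 805 CPM in endothelial cells and means of 76.5 to 141 CPM in the other 9 classes. It was higher in endothelial cells than in the mean of the other classes by 2.91 ± 0.11 (adjusted p = 9.46e-31). Itgb1bp1, which binds the tail of beta1, ranged from 5.55 to 24.3 CPM and Itgb3bp, a centromere protein, from 29.4 to 109 CPM between class means. Both overlap coding genes on the other strand. Itgbl1, a secreted protein with repeats like those of beta subunits, averaged 86.8 CPM in fibroblasts, 60.7 CPM in molecular layer interneurons, 57.8 CPM in inhibitory and 34.7 CPM in glutamatergic neurons.

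Genes that work with these proteins were read from 4 further lists. In mural cells, 16 of 21 other basement membrane and matrix genes tested were higher and 1 was lower. They held Nid1 (6.85 ± 0.23), a link between the laminin and collagen IV networks, Hspg2 (5.08 ± 0.39), which codes for perlecan, and Fn1 (6.32 ± 0.36), which codes for fibronectin. The list also holds Vtn, a marker used to name the class, and Fbln1, a marker used to name fibroblasts. Of 23 integrin-linked adhesion genes 16 were higher and 1 lower, with Tns2 (4.42 ± 0.26) and Vcl (2.93 ± 0.15) among them. Of 23 collagen folding and crosslinking genes 8 were higher and 2 lower, and of 13 other matrix receptors 6 and 0. The collagen chaperone Serpinh1 was higher in mural cells by 5.46 ± 0.31 and in fibroblasts by 4.45 ± 0.46. In fibroblasts the counts were 9 higher and 1 lower of 22, 5 and 1 of 23, 8 and 0 of 23, and 5 and 0 of 13, in the same order of lists. The matrix list had 22 genes past the filter with fibroblasts and 21 without them. Fibroblasts against mural cells gave 3 higher and 9 lower of 22, 0 and 4 of 23, 5 and 1 of 23, and 1 and 3 of 13. The shares of all genes were 20.7% higher and 15.3% lower in mural cells, 7.46% and 7.7% in fibroblasts, and 4.23% and 9.7% for fibroblasts against mural cells. Fn1 differed there by -4.28 ± 0.72, and Efemp1, a fibulin, by 4.72 ± 0.38. Median log2 fold changes in mural cells were 2.93, 1.43, 0.26 and 0.21, against -0.08 over all genes.

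Between the lines, 0 of the 60 genes passed over all nuclei with 2 Ucn3-Cre against 2 vGluT2-Cre libraries, where 0.0% of all genes passed. At an unadjusted p under 0.05 there was 1 gene in edgeR and 2 in DESeq2, which also called 0. The Ucn3-Cre and vGluT2-Cre values did not overlap for 21 of the 60, of which 13 were higher in Ucn3-Cre, and 26.7% of the 11446 genes with a count in each library did not overlap. Col4a3 had the smallest p, with 6.14 and 8.13 CPM in the Ucn3-Cre and 4.06 and 4.31 CPM in the vGluT2-Cre libraries (log2 fold change 0.79 ± 0.31, adjusted p = 0.9999 in edgeR). Itgae had 6.82 and 8.96 CPM in Ucn3-Cre and 14.6 and 10.3 CPM in vGluT2-Cre (-0.63 ± 0.28). Lamb2 had 30.8 and 24.4 CPM in Ucn3-Cre and 12.2 and 22.4 CPM in vGluT2-Cre (0.68 ± 0.31). The column names of both replicate 2 libraries carry the same number, and those of the replicate 1 libraries differ, and what the number stands for is not given in the sources used here. Between the replicate 2 libraries alone, with no test possible, Ucn3-Cre and vGluT2-Cre had 8.13 and 4.31 CPM of Col4a3, 8.96 and 10.3 CPM of Itgae, and 24.4 and 22.4 CPM of Lamb2. Whole-library levels hold cell numbers and levels per cell together, which cannot be told apart from these levels alone. Tests with the class held fixed are given below. Endothelial cells were 1.47 and 2.12% of Ucn3-Cre nuclei and 0.705 and 2.20% of vGluT2-Cre nuclei.

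**Figure D5:**
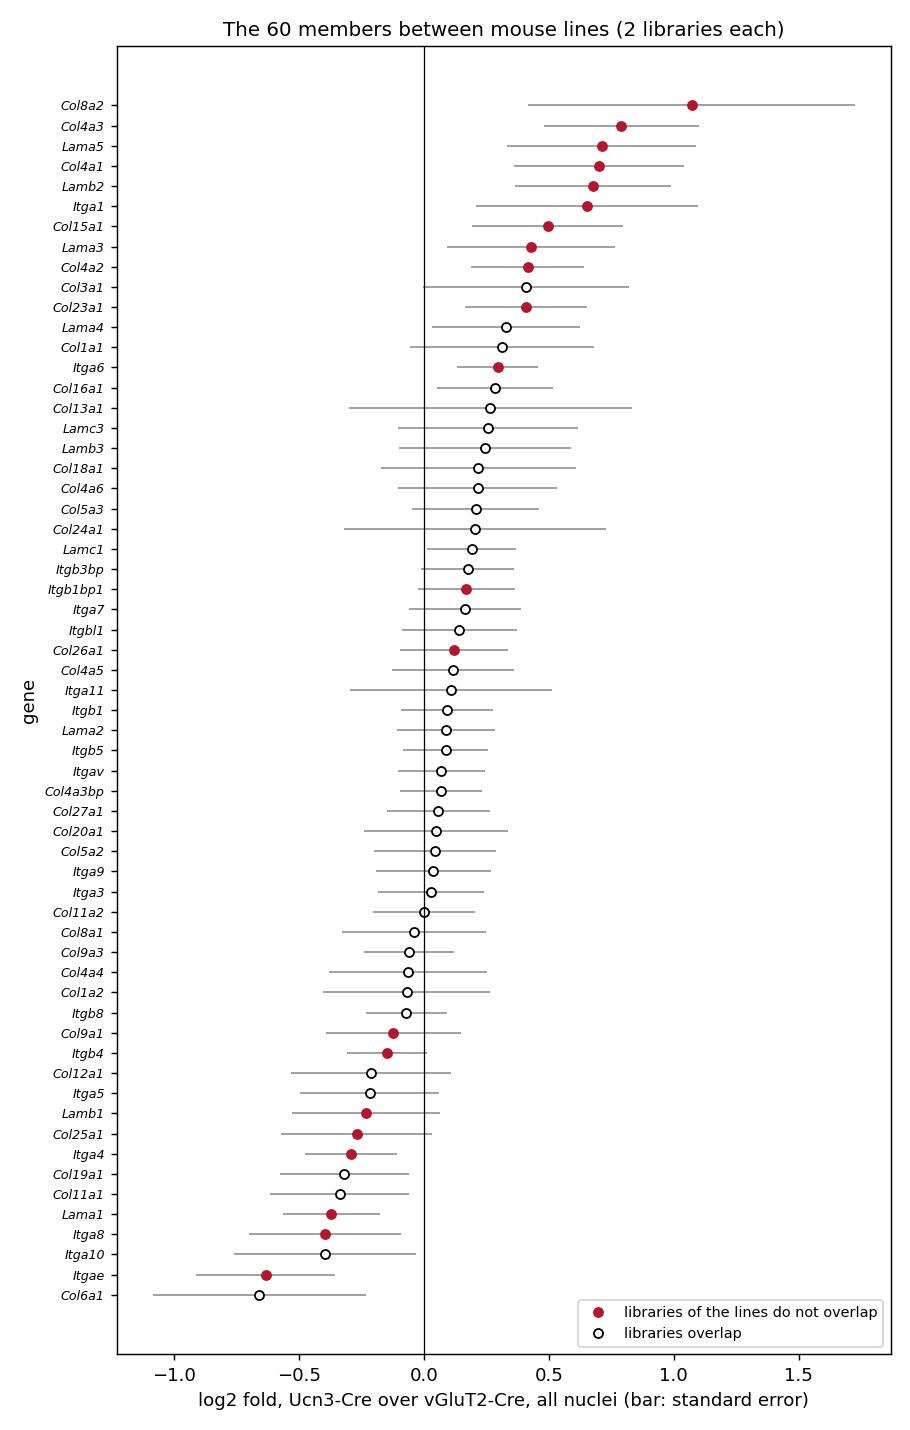
Log2 fold change of Ucn3-Cre over vGluT2-Cre libraries for each of the 60 genes over all nuclei, with bars of 1 SE and filled points where the libraries of the lines did not overlap. No gene passed after adjustment, and 21 had values that did not overlap between the lines.

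Within 9 classes, 212 tests of these genes gave 0 calls in edgeR and 8 with an unadjusted p under 0.05, and DESeq2 gave 0 calls and 2. Of all genes, 0.0147% passed in microglia or macrophages, 0.0275% in molecular layer interneurons and 0.0% in each of the other 7 classes. The smallest p was that of Itgb5 in glutamatergic neurons, at 19.2 and 9.10 CPM in Ucn3-Cre and 1.93 and 4.00 CPM in vGluT2-Cre (log2 fold change 2.27 ± 0.63, adjusted p = 0.730 in edgeR). Itgae was lower in the Ucn3-Cre libraries there too, at 22.6 and 27.4 CPM against 47.6 and 55.5 CPM in vGluT2-Cre (adjusted p = 0.969 in edgeR). In the test of whether the line difference itself varied between classes, 0 of 54 genes passed, where 0.0085% of all genes did. With 2 libraries a line, a miss does not show that the lines were alike.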

How the data were processed

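Single-nucleus RNA was counted in 4 libraries. The authors used Cell Ranger 3.1.0, Seurat 3.2 and the mm10 build, per the submitters' processing notes. The deposited values are expected counts per gene and nucleus, most of them just below a whole number. The step that lowered them, and whether counting used the strand or introns, are not given in the sources used here.

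Scrublet in scanpy 1.11.5 marked 37 of 21494 nuclei (0.172%), so the 947 highest scores, 0.8% per 1000 nuclei of a library, were removed instead. Nuclei were scaled to 10000 counts and clustered with leidenalg 0.10.2 on 2000 variable genes and 30 components, without the collagen, laminin and integrin genes and the pathway lists. A cluster was named from fixed markers, with thresholds set after the clusters were seen. Nuclei of the vessel clusters and the glutamatergic cluster were clustered again. Counts were summed per library and class, rounded, and tested with edgeR 4.0.16 (R 4.3.3; filterByExpr, TMM, quasi-likelihood, Benjamini-Hochberg at 0.05), with DESeq2 1.42.0 as an alternative for the line. The scripts were tested on simulated data. The library was the replicate; the labels name 1 animal's sex and age for each, and p-values measure the spread between these libraries. Intervals and floors (3 counts) cover counting error only.

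Named genes are, per comparison and direction, up to 5 with the largest fold among those past the threshold, with a log2 fold change of at least 1 and the same direction in 4 of 4 libraries, together with 9 genes of wide use (Col4a1, Col4a2, Lama2, Lama4, Lamb1, Lamc1, Itgb1, Itga6, Itgav) and the 4 that are no chain. For sub-clusters they are the 5 with the smallest adjusted p, and for the line the 3 with the smallest p. Other genes were described after their values were seen. The genes and lists were chosen with earlier results of these data known. Alternatives were other scalings, no filter, no block, other clusterings, doublets kept and each library left out. For the line over all nuclei they also held sums weighted to the same class shares in every library. Positions are from GENCODE vM21 on GRCm38, and 10 of the 60 genes overlap a coding gene of the other strand and 2 one of the same strand.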

Additional observations from a re-analysis of the deposited data

Results flagged for a closer look

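Of 121 levels of named genes in a class, each over 4 libraries, 15 had 1 library far from the other 3 by Dixon's ratio. Chance gives about 5% of such groups for normally spread values. That rate does not apply where the other 3 libraries were at 0, since a single value above 0 is then always flagged. In the vessel classes these were Itga1 at 712 CPM in endothelial cells of vGluT2-Cre replicate 2, and Col8a1 at 13.3 CPM and Col27a1 at 12.8 CPM in endothelial cells of vGluT2-Cre replicate 1. Itga4 stood at 271 CPM in mural cells of vGluT2-Cre replicate 1, and Itgbl1 at 6.88 CPM in those of Ucn3-Cre replicate 2. In fibroblasts Itga7 was at 22.4 CPM in vGluT2-Cre replicate 1 and Itga6 at 24.0 CPM in Ucn3-Cre replicate 2, and in both cases the other 3 libraries were at 0, as for Itgbl1 in mural cells and Col8a1 and Col27a1 in endothelial cells. Among glia they were Itga9 at 348 CPM in microglia or macrophages of vGluT2-Cre replicate 2, Col5a3 at 110 CPM in oligodendrocyte precursors of vGluT2-Cre replicate 1, and Itgb4 at 6.91 CPM in astrocytes of Ucn3-Cre replicate 1. In oligodendrocytes Lama2 was at 222 CPM in Ucn3-Cre replicate 1 and Col4a2 at 1.46 CPM in vGluT2-Cre replicate 2. In neurons Lama2 was at 35.7 CPM in inhibitory neurons of Ucn3-Cre replicate 1, Col27a1 at 2.42 CPM in those of vGluT2-Cre replicate 1, and Itga8 at 10.2 CPM in glutamatergic neurons of vGluT2-Cre replicate 2. Of the 15, 6 were in vGluT2-Cre replicate 1.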

How the results depend on the processing

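Of 273 recomputed counts of calls, 270 stayed within 1.5 times the value given. Genes higher in glutamatergic than in inhibitory neurons numbered 10 with no library block, against 17. Between the lines over all nuclei, leaving out each library gave 0 to 4 calls. The 4 came without vGluT2-Cre replicate 2: Itga1 (log2 fold change 1.76, adjusted p = 4.63e-06), Col4a1 (1.34, 7.29e-04), Lamb2 (1.24, 2.61e-03) and Col11a1 (-0.69, 0.0437). Endothelial nuclei were then 1.47 and 2.12% in Ucn3-Cre and 0.705% in vGluT2-Cre, and their part was not tested. Within classes, leaving out each library gave 0 to 1 call, Itga9 in inhibitory neurons without Ucn3-Cre replicate 2 (4.13, adjusted p = 9.46e-05). Of 1140 recomputed values of named genes, 3 lost their call (Itga8 in astrocytes against oligodendrocytes, Col6a1 in glutamatergic against inhibitory neurons, Itga6 in fibroblasts against mural cells), 1 gained it (Lamb2 between the lines) and 0 changed direction. The replicate 2 libraries of both lines share a number in their column names, of unstated meaning, and the replicate 1 libraries do not. Paired by replicate number, the deviations of libraries from the mean of their line had a correlation of 0.198 over 10780 genes. With 2 libraries a line this value is the same for both pairs, so it is not particular to the pair that shares a number. With the replicate number as a replicate block, 0 of the collagen, laminin and integrin genes were called over all nuclei and 0 within classes. With the Piezo2 and Klk6 cluster counted as oligodendrocytes, a choice made after the data were seen, oligodendrocytes had 13 of these genes higher and 18 lower, and oligodendrocyte precursors against oligodendrocytes 18 and 6. Depth limits the rarer classes most: the fibroblast sums held 28685 to 63924 counts per library, and Itga8, Itga9, Col26a1 and Lama3 in mural cells rested on 27.7, 23.5, 18.6 and 12.9 counts in all. Scaling by total counts in place of TMM moved the median log2 fold change of all genes by over 0.1 in several classes: it was -0.18 against 0.00 in astrocytes, -0.25 against 0.01 in oligodendrocytes, -0.11 against -0.01 in oligodendrocyte precursors, 0.06 against -0.16 in microglia or macrophages, 0.11 against -0.08 in mural cells, -0.01 against -0.13 in endothelial cells, 0.08 against -0.39 in fibroblasts and -0.05 against -0.36 in fibroblasts against mural cells. Over all genes the calls higher and lower became 3167 and 4518 in astrocytes (4005 and 3210 with TMM), 2747 and 4805 in oligodendrocytes (3997 and 3229), 3777 and 2653 in microglia or macrophages (2991 and 3428), 2869 and 1234 in mural cells (2440 and 1796), and 1203 and 1948 between glutamatergic and inhibitory neurons (1543 and 1444). Among the collagen, laminin and integrin genes they became 22 and 14 in astrocytes, 12 and 19 in oligodendrocytes, 10 and 17 in microglia or macrophages, 36 and 0 in mural cells, and 14 and 9 between the neuron classes.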
